A study of Rattus norvegicus with 8 samples.

Results

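Of the 758 miRNAs that the arrays measured in rat kidney, 3 are described here: rno-miR-126a-3p and rno-miR-126a-5p, the arms of the miRNA best known from the endothelium that lines blood vessels, and rno-miR-451-5p, the miRNA best known from red blood cells. The prefix rno, for rat, is left off below. They were taken by name from the deposited scanner tables, and all 3 were detected on 8 of 8 arrays and were among the 238 miRNAs tested. Right kidneys were sampled at 10 weeks of age from males of the inbred strain F344/NSlc. In 4 rats the operation was a sham, and 4 rats were nephrectomized, which leaves a single kidney that then grows to take over the work. By the sample labels, sham rats were sampled after 1 day and nephrectomized rats after 2, while the design text gives 2 days, so time and operation cannot be told apart if the labels are right. The labels name kidney as the tissue and do not say whether blood was flushed out before the RNA was taken.

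miR-126 is made from within Egfl7, a gene that endothelial cells express, and is known to sustain the response to vascular endothelial growth factor by repressing inhibitors such as Spred1; the other arm is known in mouse to repress Dlk1 in endothelial cells. miR-451 is made together with miR-144 in cells that become red blood cells, is cut from its short precursor by an Argonaute protein without Dicer, and is known in mouse to protect red cells against oxidants by repressing Ywhaz. Mature red blood cells have no nucleus and carry the miRNA made earlier, and miR-451 in plasma is used as a sign of broken red cells. In RefSeq's build GRCr8 miR-126a-3p lies within the bounds of Egfl7, on the plus strand of chromosome 3 from 29813219 to 29813240, and miR-126a-5p lies just before it, from 29813182 to 29813202. miR-451-5p lies on the plus strand of chromosome 10, from 63459585 to 63459606.

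The mature sequences from RefSeq (GRCr8) are shown because the 3 miRNAs share no seed, so that none can stand in for another. The seed, bases 2 to 8, is in capitals.
miR-126a-3p: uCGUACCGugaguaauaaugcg
miR-126a-5p: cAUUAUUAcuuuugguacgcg
miR-451-5p: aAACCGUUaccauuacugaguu
Each of these seeds occurred in 1 of the 724 mature rat miRNAs of that table, the miRNA itself.

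The probes are shown because they set what each value can hold. miR-126a-3p and miR-451-5p each had a pair of probes that differ by 1 base in length, and miR-126a-5p had a single probe. All 5 are full complements of the mature miRNA, written here as DNA in lower case.
miR-126a-3p, 17 bases: cgcattattactcacgg
miR-126a-3p, 18 bases: cgcattattactcacggt
miR-126a-5p, 21 bases: cgcgtaccaaaagtaataatg
miR-451-5p, 20 bases: aactcagtaatggtaacggt
miR-451-5p, 21 bases: aactcagtaatggtaacggtt
The probes of miR-126a-3p pair with bases 6 to 22 or 5 to 22 of the miRNA, and those of miR-451-5p with bases 3 to 22 or 2 to 22. Probes were compared from their first base, with shifts of up to 2 bases, over at most the length of the shorter probe. Among the probes of all other miRNAs on the array, 1 came within 3 mismatches of a probe above by this count. It was a miR-1247-5p probe against that of miR-126a-5p. Bases beyond that length were not compared, and whether either probe takes up the other miRNA was not tested. In build rn4 the deposited tables place the miR-126a-3p probe of 18 bases on chromosome 3 from 4768167 to 4768183, the miR-126a-5p probe on chromosome 3 from 4768126 to 4768145 and the miR-451-5p probe of 21 bases on chromosome 10 from 64129536 to 64129555. Each listed interval is 1 base shorter than its probe, and annotation of that build was not used here.

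Levels are the scanner's background-subtracted intensities after scaling by the array's own 75th percentile, taken over the 214 miRNAs that every array detected. The nephrectomized arrays were dimmer before scaling and detected 224 to 230 miRNAs, against 242 to 253 on the sham arrays. The labelling spike-ins, synthetic RNAs that pass through the labelling reaction, stood at 9.94 to 10.35 on the log2 scale on nephrectomized arrays and at 10.52 to 10.61 on sham arrays (exact two-sided permutation test, p = 0.0286, and no smaller p is possible with 4 arrays a side; 0.0358 after Benjamini-Hochberg adjustment over 5 measures). All 8 arrays were on 1 slide scanned once. The array positions in the file headers put all sham samples in slide row 1 and all nephrectomized samples in slide row 2, so slide row and group cannot be told apart. In an extract of whole kidney, fewer cells of a type and less RNA per cell cannot be told apart either.

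Each arm of miR-126a varied little between rats and was slightly lower after nephrectomy, by less than the test required. miR-126a-3p, the arm that represses Spred1, had scaled intensities of 1182, 1172, 1230 and 1149 in the sham kidneys. In the nephrectomized kidneys it had 1083, 1153, 1134 and 1132. Nephrectomized replicate 2 lay just above the lowest sham kidney, so the groups overlapped by a single pair of rats. miR-126a-5p, the other arm of the same precursor, had 55.7, 56.3, 56.9 and 53.4 in the sham kidneys. In the nephrectomized kidneys it had 52.4, 52.5, 54.1 and 47.1. Nephrectomized replicate 4 was the lowest of all rats for this arm, and only nephrectomized replicate 3 reached into the sham range.

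On the log2 scale miR-126a-3p stood at 10.21 ± 0.041 (SD, n = 4) in sham and 10.14 ± 0.038 (SD, n = 4) in nephrectomized kidneys. The difference of -0.072 ± 0.037 (SE) had a 95% interval of -0.16 to 0.014 and did not pass (limma, Benjamini-Hochberg adjusted p = 0.3). miR-126a-5p stood at 5.80 ± 0.040 and 5.69 ± 0.088 (SD, n = 4). Its difference of -0.11 ± 0.051 (SE), with an interval of -0.23 to 0.0057, did not pass either (limma adjusted p = 0.258). For each arm the exact two-sided permutation test over the 8 rats gave p = 0.0571. In the limma fit, 0% of the 238 tested miRNAs passed the adjusted threshold of 0.05 and 20.2% had an unadjusted p under 0.05, neither arm of miR-126a among them; 4.62% had such a p and were lower after nephrectomy. The groups did not overlap for 14.7% of the tested miRNAs, 4.2% with the nephrectomized group lower, and again neither arm was one of them. The median difference of all tested miRNAs was -0.0077, and 64 of them had a lower difference than miR-126a-3p and 41 a lower one than miR-126a-5p.

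The direction of the miR-126a differences depended on the scaling and the background correction. With each array scaled to the labelling spike-ins, miR-126a-3p stood at 0.015 and miR-126a-5p at -0.024, against a median of 0.080 over the tested miRNAs. With normexp background correction miR-126a-3p passed at -0.13 (limma adjusted p = 0.00979) and miR-126a-5p turned to 0.026, where that median was 0.13. Under normexp 156 of the 238 tested miRNAs passed, 20 of them lower. Without any scaling both arms passed as lower, at -0.35 and -0.39 (limma adjusted p = 0.00852 and 0.00819), together with a median of -0.29 over all tested miRNAs. There 160 of the 238 passed, 159 of them lower, so passing was not particular to miR-126a.

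miR-451-5p differed widely between rats of the same group and did not differ between the groups beyond that spread. Its scaled intensities in the sham kidneys were 90.6, 46.2, 87.5 and 41.9. In the nephrectomized kidneys they were 70.1, 73.4, 110.7 and 44.8. Sham kidneys fell into a high pair and a low pair, nephrectomized replicate 3 was the highest of all rats, nephrectomized replicate 4 lay with the low sham pair, and the groups overlapped in all rats but nephrectomized replicate 3 and sham replicate 4, the lowest of all. The highest rat had 2.16 times the intensity of the lowest in the sham group and 2.47 times in the nephrectomized group. For comparison, the same ratio was 1.07 and 1.06 for miR-126a-3p and 1.07 and 1.15 for miR-126a-5p.

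The log2 level of miR-451-5p was 5.97 ± 0.59 (SD, n = 4) in sham and 6.15 ± 0.53 (SD, n = 4) in nephrectomized kidneys. The difference of 0.18 ± 0.35 (SE) did not pass (limma adjusted p = 0.792; exact two-sided permutation p = 0.714). Its 95% interval of -0.62 to 0.99 on the log2 scale reaches from 0.65-fold to 1.98-fold, so a change of either sign well above that of miR-126a would not have been detectable with these rats. limma moderates each spread towards that of other miRNAs, and here it lowered the standard error, which was 0.398 without moderation. Leaving out sham replicate 4 or nephrectomized replicate 3 turned the difference to -0.0095 or -0.030, and leaving out nephrectomized replicate 4 raised it to 0.41.

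**Figure D1:**
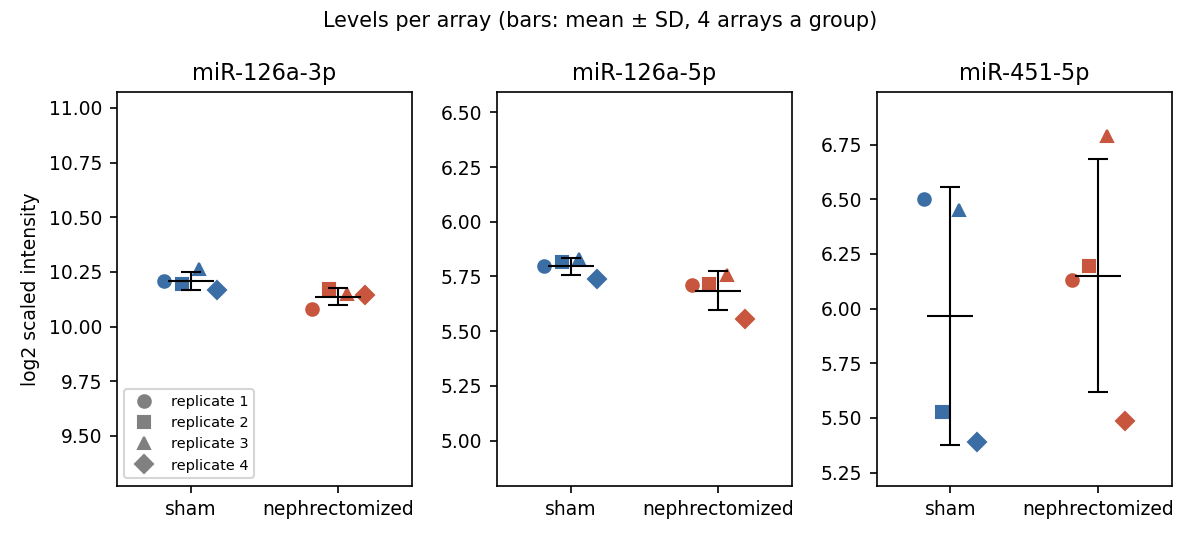
Log2 scaled intensity of the 3 miRNAs (y axis, the same span of log2 units in each panel) in sham and nephrectomized kidneys; each point is 1 array, its shape gives the replicate number, and the black bars are the mean ± SD of 4 arrays. Both miR-126a arms form tight groups, while miR-451-5p spans 5.39 to 6.50 in sham and 5.48 to 6.79 in nephrectomized kidneys.

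The spread of miR-451-5p was seen alike by its probes. On every array the longer probe read 1.18 to 1.3 log2 units above the shorter one, and the probes put the 8 arrays in the same order. Within an array, the 5 to 8 usable spots of a miR-451-5p probe had an SD of 0.022 to 0.147 on the log2 scale. The difference between groups was 0.14 by the shorter and 0.20 by the longer probe. For miR-126a-3p the probes gave -0.075 and -0.071, the longer reading 1.42 to 1.5 log2 units above the shorter, and they did not put the arrays in the same order. Spots and probes of one array read the same labelled RNA, so they say nothing of differences in handling or labelling between samples.

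**Figure D2:**
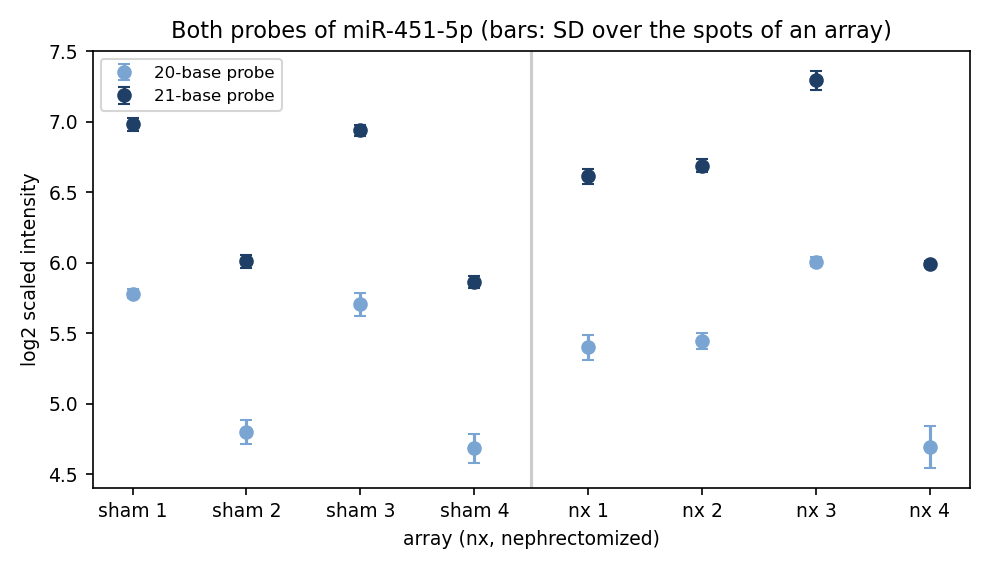
Log2 scaled intensity (y axis) of both probes of miR-451-5p on each array (x axis, sham left of the line and nephrectomized, nx, right of it); the bars are the SD over the spots of a probe on that array. Both probes rise and fall together from rat to rat, and the spot SD never exceeds 0.147.

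Set against the other miRNAs, miR-451-5p had a wide spread for its level, and the miR-126a arms had a spread close to that of other miRNAs of their level. The residual SD within groups was 0.563 for miR-451-5p, 0.0396 for miR-126a-3p and 0.0686 for miR-126a-5p, and its median over the 238 tested miRNAs was 0.0986. Counted from the largest, miR-451-5p was number 7, miR-126a-5p number 162 and miR-126a-3p number 219. Within 1 log2 unit of its own level, miR-126a-3p was number 19 of 28, where the median was 0.0446, and miR-126a-5p number 32 of 48, where the median was 0.0807. Among the 91 tested miRNAs at or above the mean level of miR-451-5p it had the largest residual SD, 1.58 times that of miR-3473, which followed. With the replicate number as a block the residual SD of miR-451-5p was 0.31, second among those 91 and number 19 of all, and with normexp background correction it was 0.306 and number 1 of all. Its overall place was 17 with the total gene signal and 21 in the deposited value table. Of the 6 miRNAs with a larger residual SD, all had a lower mean level, and only miR-96-5p was detected on 8 of 8 arrays. These ranks are a description and were not tested.

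**Figure D3:**
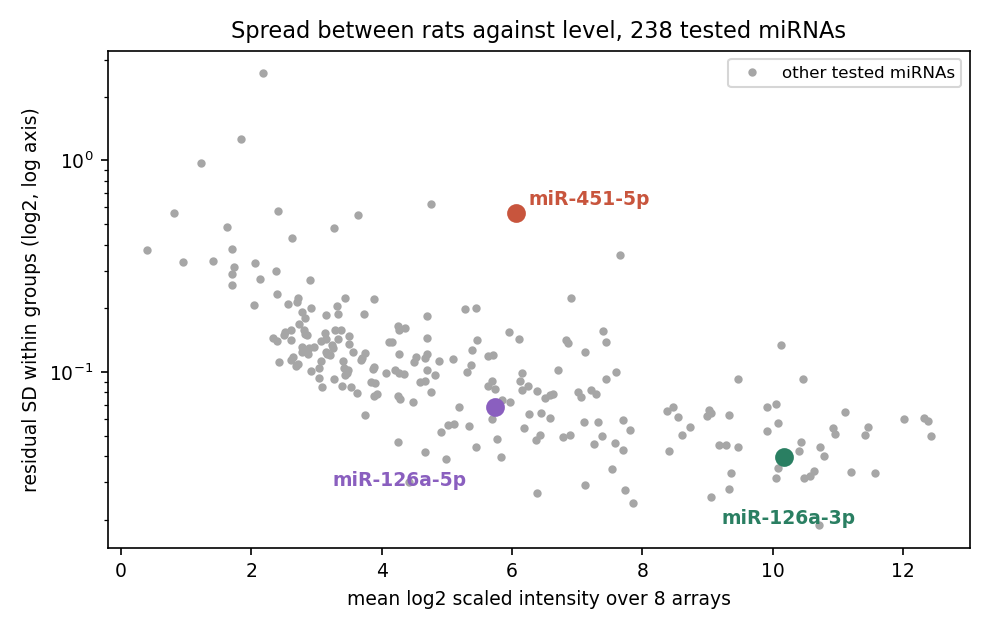
Residual SD within groups (y axis, log2 units on a log axis) against the mean log2 scaled intensity over 8 arrays (x axis) for the 238 tested miRNAs. The spread falls with the level; miR-451-5p, at 0.563, lies far above the others of its level, and both miR-126a arms lie at or below the bulk.

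Whether vessel and blood miRNAs co-varied was asked over 3 pairs. Over the 8 arrays, miR-126a-3p and miR-451-5p had a Pearson r of 0.169 (exact permutation p = 0.695) and a Spearman rho of 0.333 (exact permutation p = 0.428). Without sham replicate 3 and nephrectomized replicate 1, the arrays farthest from the median of miR-126a-3p, r was 0.051. miR-126a-5p and miR-451-5p had an r of 0.42 (exact permutation p = 0.312) and a rho of 0.429 (exact permutation p = 0.299), and r was -0.066 without nephrectomized replicate 4 and sham replicate 3. After Benjamini-Hochberg adjustment over the 3 pairs, the p-values of r were 0.695 and 0.468 and those of rho were 0.428 and 0.428. Neither arm of miR-126a showed a relation with miR-451-5p that passed over these 8 rats.

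The arms of miR-126a, which come from one precursor, had an r of 0.596 (exact permutation p = 0.124, adjusted 0.372) and a rho of 0.857 (exact permutation p = 0.0107, adjusted 0.0321). Without sham replicate 3 and nephrectomized replicate 1, r was 0.713 (exact permutation p = 0.0875). After the group means were taken off, r was 0.203 (exact permutation within groups, p = 0.639). That value depended on the setting: it was 0.961 with scaling to the labelling spike-ins, 0.78 without scaling and -0.153 with normexp, and 0.0104 to 0.634 when 1 array was left out, lowest without sham replicate 4. Without scaling, brightness shared by all miRNAs of an array stays in both arms. Its part in these r values, there or with the spike-ins, was not tested. With the group means taken off, miR-126a-5p and miR-451-5p had an r of 0.761 (exact permutation within groups, p = 0.033, adjusted 0.099 over the 3 pairs) and miR-126a-3p and miR-451-5p an r of 0.446 (p = 0.314, adjusted 0.471, same exact test). The latter was -0.0811 with the spike-in scaling, up to 0.609 under the other settings, and 0.259 to 0.613 when 1 array was left out. miR-126a-5p was lowest, in each group, in the rat with the least miR-451-5p, replicate 4 of both. When 1 array was left out the r of 0.761 ran from 0.674 to 0.88, but with scaling to the labelling spike-ins it was 0.0188. Nephrectomized replicate 4 also had the dimmest labelling spike-ins of all arrays. Over the 8 arrays those spike-ins went with miR-126a-5p at an r of 0.89 (exact permutation p = 0.00635, adjusted 0.0381 over 6 relations of the 3 miRNAs with array brightness), at a rho of 0.738 (exact permutation p = 0.0458, adjusted 0.256), and at an r of 0.592 without nephrectomized replicates 4 and 2. Within the groups that r was 0.81 (exact permutation within groups, p = 0.168, adjusted 0.609). The part of labelling in the miR-126a-5p values was not tested.

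**Figure D4:**
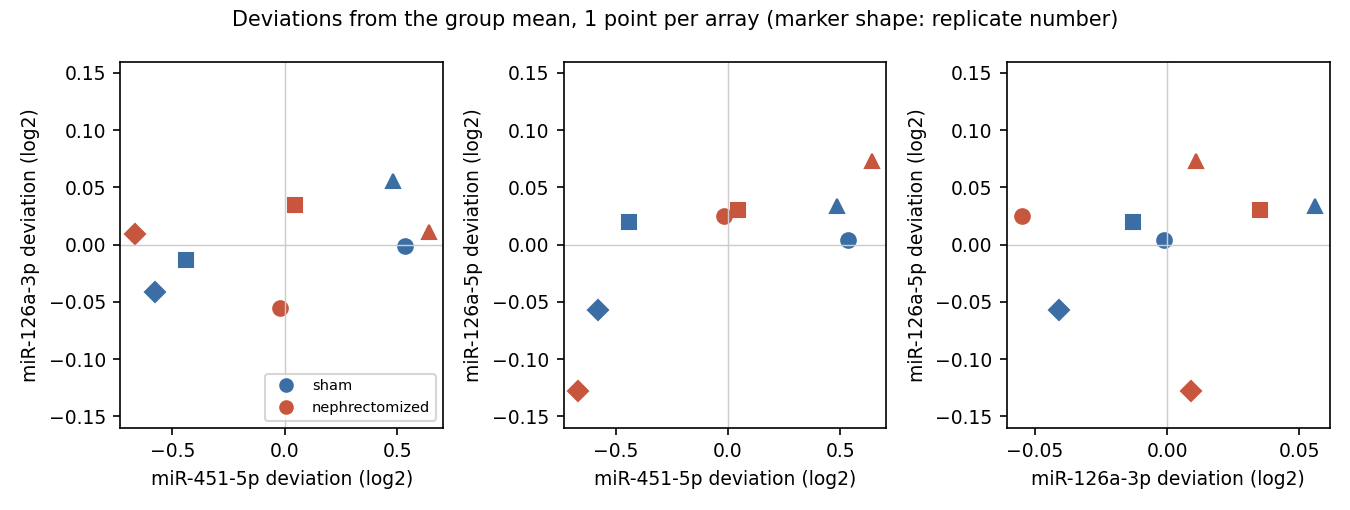
Deviation of each array from its group mean in log2 units, miR-451-5p against miR-126a-3p (left), miR-451-5p against miR-126a-5p (middle) and miR-126a-3p against miR-126a-5p (right); the marker shape gives the replicate number. The x axis of miR-451-5p spans -0.67 to 0.64, several times the y axis of either miR-126a arm; r is 0.446 on the left, 0.761 in the middle and 0.203 on the right, and both replicates 4 lie lowest in the middle panel.

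Ratios taken within an array, in which its scaling cancels, gave no difference between the groups that passed. The log2 ratio of miR-126a-3p to miR-126a-5p changed by 0.039 ± 0.051 (SE), the ratio of miR-126a-3p to miR-451-5p by -0.255 ± 0.386 and the ratio of miR-126a-5p to miR-451-5p by -0.294 ± 0.362, as nephrectomized minus sham with 4 rats in each group. The exact two-sided permutation p was 0.6, 0.6 and 0.457, and 0.6 for each after adjustment over the 3 ratios. The arm ratio was steady in sham kidneys, from 4.38 to 4.43. In nephrectomized kidneys it ran from 4.37 to 4.46 in 3 rats and was 4.59 in replicate 4, the rat in which miR-126a-5p was lowest; without that rat the change was -0.0065. With miR-451-5p as a covariate, the differences of miR-126a-3p and miR-126a-5p were -0.078 and -0.13 (limma adjusted p = 0.363 and 0.196). Whether miR-451-5p measures the blood retained in these kidneys, or the miR-126a arms their vessels alone, was not tested.

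The close relatives of the 3 miRNAs gave little or no signal. miR-144-3p and miR-144-5p, whose gene neighbours that of miR-451 (121 bases lie between the longest probes of miR-144-3p and miR-451-5p in rn4), were detected on 0 of 8 arrays, with intensities of -1.96 to -0.513 and -0.807 to 0.893. miR-451-3p, from the far side of the miR-451 precursor, was detected on 0 arrays (0.251 to 1.25). miR-486, another miRNA abundant in red blood cells, was detected on 1 array, that of sham replicate 3, with intensities of 3.39 to 6.31 over all arrays. miR-126b, which lies on the strand opposite to miR-126a-5p and shares 17 bases of position with it, was detected on 0 arrays (-2.78 to -1.67). Of the 4 red blood cell miRNAs listed, therefore, miR-451-5p alone could be tested, and of the 3 endothelial ones the miR-126a arms.

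Of 5 tested miRNAs that red blood cells hold in quantity but many cells make, 3 had differences above 0 and 2 below. Over all 238 tested, 113 were above 0 and 125 below. The median of the 5 was 0.0049 beside -0.0077 over all 238, and 0 passed over all miRNAs. miR-15b-5p, a repressor of cell cycle genes, had the lowest p of the 5, at 8.39 ± 0.072 in sham and 8.56 ± 0.065 (SD, n = 4) in nephrectomized kidneys (limma adjusted p = 0.132). Its groups did not overlap, as for 14.7% of the 238 tested miRNAs. miR-25-3p and miR-363-3p differed by 0.051 ± 0.045 and -0.11 ± 0.115 (SE; limma adjusted p = 0.541 and 0.614). The residual SD of these 5 ran from 0.034 to 0.18, on both sides of the median of 0.0986 over all tested, against 0.563 for miR-451-5p. Of miRNAs that endothelium shares with other cells, 6 of 10 were tested, 1 above 0 and 5 below, with a median of -0.041, and 0 passed. Among them miR-221-3p, also made by smooth muscle, stood at 5.65 ± 0.061 in sham and 5.74 ± 0.059 (SD, n = 4) in nephrectomized kidneys, and miR-27a-3p at 9.51 ± 0.013 and 9.43 ± 0.061 (SD, n = 4), each with a limma adjusted p of 0.287. The groups did not overlap for miR-27a-3p either. miR-23a-3p, from the same cluster as miR-27a, stood at 10.82 ± 0.022 and 10.75 ± 0.053 (SD, n = 4; limma adjusted p = 0.348).

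Markers of the other cells that blood and vessels bring along were read beside these. Of 5 tested miRNAs of leukocytes and platelets, 1 was above 0 and 4 below, with a median of -0.085, and 0 passed. Of all 238 tested, 125 were below 0. The leukocyte miRNA above 0 was miR-223-3p, at 0.031 ± 0.042 (SE), named below among those most like miR-451-5p. miR-155-5p, of activated lymphocytes and macrophages, stood at 3.57 ± 0.123 in sham and 3.41 ± 0.075 (SD, n = 4) in nephrectomized kidneys (limma adjusted p = 0.247). miR-146a-5p, a brake on inflammatory signalling, differed by -0.084 ± 0.042 (SE; limma adjusted p = 0.287), and miR-150-5p, of mature lymphocytes, by -0.085 ± 0.053 (SE; limma adjusted p = 0.381). The groups did not overlap for miR-150-5p, as for 14.7% of the 238 tested miRNAs, 4.2% with the nephrectomized group lower. The summed scaled intensity of this list was 668 to 716 in sham and 617 to 675 in nephrectomized kidneys. That sum rests mostly on its brightest miRNA, miR-146a-5p, at log2 means of 8.65 in sham and 8.56 in nephrectomized kidneys. The sum was not tested and is not a measure of cell content. Of the smooth muscle miRNAs, miR-143-3p and miR-145-5p differed by 0.0094 ± 0.064 and -0.025 ± 0.062 (SE), and 2 others were detected on no array. The 7 kidney epithelial miRNAs were detected on all arrays, 5 with a difference below 0 and none passing. The lowest p-values of this list were those of miR-192-5p, miR-200c-3p and miR-30a-5p. They differed by 0.088, -0.23 and -0.067 (limma adjusted p = 0.137, 0.204 and 0.3). Within the list, the groups did not overlap for miR-192-5p, higher after nephrectomy, and for miR-10a-5p, lower, beside the 14.7% of all tested miRNAs. Liver miR-122-5p and the muscle miRNAs miR-1-3p, miR-133a-3p and miR-206-3p were detected on 0 of 8 arrays.

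**Figure D5:**
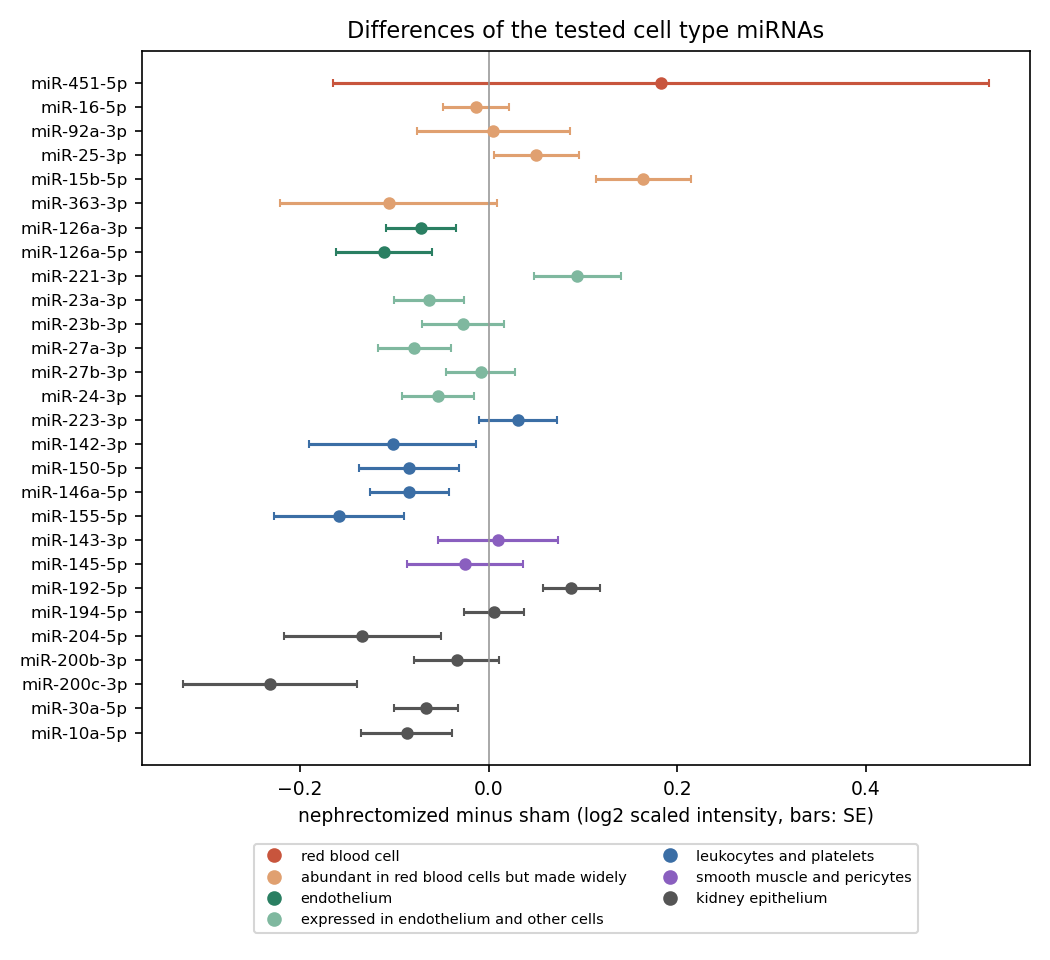
Difference in log2 scaled intensity, nephrectomized minus sham (x axis, bars are SE), for the tested miRNAs of the cell type lists (y axis, coloured by list). The miR-126a arms lie at -0.072 and -0.11 among other small negative differences, and miR-451-5p, at 0.18, has by far the widest bar.

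The tested miRNAs whose deviations from the group means over the 8 arrays were most like each member are given as a description, with no test. For miR-451-5p these were miR-329-3p at an r of 0.808, miR-126a-5p at 0.761, miR-218a-5p at 0.74, miR-27b-3p at 0.734 and miR-223-3p at 0.726. Only miR-329-3p reached 0.8, and the residual SD of these 5 was 0.039 to 0.107, so none shared the size of the miR-451-5p swings. For miR-126a-3p they were miR-154-5p at 0.823, miR-382-5p, miR-99a-5p, miR-100-5p and miR-494-3p, the last at 0.703, and miR-126a-5p came in place 85 of 237. For miR-126a-5p they were miR-30b-5p at 0.884, miR-143-3p and miR-329-3p at 0.85, miR-133b-3p at 0.778 and miR-451-5p at 0.761, and miR-126a-3p came in place 101. miR-382-5p was detected on 4 arrays, and miR-329-3p on 6 of 8 arrays at a dim mean log2 level of 2.69. All arrays share their scaling and slide, and of 237 others 1 reached an r of 0.8 with miR-126a-3p, 3 with miR-126a-5p and 1 with miR-451-5p.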

How the data were processed

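MicroRNA was measured on 8 one-colour (Cy3) Agilent arrays, 1 per kidney; groups and replicate numbers come from the sample titles. Per the labels' protocols total RNA came from Qiagen's miRNeasy kit, and each array was taken as 1 rat. If the samples were not separate rats, p-values measure only the spread between samples. Per the file headers, Agilent Feature Extraction 12.0.3.1 made the deposited linear intensity of each spot, with background subtraction and spatial detrending. Other deposited columns are flags of 0 or 1 (detected, well above background, saturated, outlier). The deposited value table holds log2 values, used as an alternative. Of its 637 rows, the 623 of miRNAs on the array were compared with the scanner values. With undetected miRNAs set to a fixed low signal, each value equals log2 of the total gene signal after a shift of the array and centring of the row (residual at most 1.1e-05). The rule behind the shift stays unknown. Column medians of the deposited value table ran from -0.25 to -0.052 in sham and from 0.052 to 0.17 in nephrectomized arrays.

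Control spots and outlier spots (8.1% to 9.01% per array) were left out, and 0 spots were saturated. A miRNA's value is the mean over its probes of each probe's mean spot. After scaling (75th percentile), values under a floor of 0.121, the lowest scaled signal of a detected miRNA, were set to it, which touched 1 value of a tested miRNA and none of the 3 described. miRNAs detected on at least 4 of 8 arrays were tested with limma 3.58.1 in R 4.3.3 (group as the only term, two-sided, Benjamini-Hochberg over 238). The fit was tested on simulated data with independent errors and changes larger than the miR-126a differences, so that test does not bear on them. Differences are nephrectomized minus sham. The number of arrays limits the precision. The members, lists and named miRNAs were chosen with earlier results of these data known. Named were the members, up to 3 of a list by lowest p, list miRNAs whose groups did not overlap, and the 5 most alike by r. Alternatives were scaling, background correction, spots, probes, floor, filter, variance model, block, covariate and leaving out 1 array.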

Additional observations from a re-analysis of the deposited data

How the results depend on the processing

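Every spot kept for the 3 miRNAs was well above background, and 4 rats per group limit the precision. Without scaling the differences of miR-126a-3p, miR-126a-5p and miR-451-5p were -0.354, -0.393 and -0.099. With normexp those of the miR-126a arms were -0.126 and 0.0256. That of miR-126a-3p was 0.0154 with the labelling spike-ins and 0 with quantile normalization. That of miR-126a-5p passed with the 75th percentile over all miRNAs (-0.22, limma adjusted p = 0.0462). The causes were not tested. For the 3 in turn, 13 of 17, 14 of 17 and 15 of 16 settings with all arrays kept sign and threshold side (limma adjusted p over all settings 0.00852 to 1, 0.00819 to 0.965 and 0.347 to 1). Filter, floor, variance model, block and exact test (unadjusted p) could not change the sign. Leaving out 1 array gave -0.086 to -0.053, -0.14 to -0.068 and -0.030 to 0.41. Normexp turned the ratio of the miR-126a arms to -0.15, and leaving out 1 array gave -0.0065 to 0.066 for it, -0.48 to -0.045 for miR-126a-3p over miR-451-5p and -0.47 to -0.11 for miR-126a-5p over miR-451-5p.

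The r of the miR-126a arms passed with the 75th percentile over all miRNAs (0.854), without scaling (0.953) and with the labelling spike-ins (0.949), and was -0.33 with normexp; it was 0.47 to 0.83 (BH-adjusted exact permutation p = 0.0298 for the latter, without nephrectomized replicate 4) when 1 array was left out. The r of miR-126a-3p and miR-451-5p was -0.033 with scaling to the median, -0.027 with quantile normalization, -0.063 with the spike-ins, -0.099 with normexp and -0.044 in the deposited value table, and -0.057 to 0.34 with 1 array left out. That of miR-126a-5p and miR-451-5p was -0.013 with the spike-ins, and 0.0988 to 0.655 with 1 array left out. The number of tested miRNAs called, 0 in limma with 48 at an unadjusted p under 0.05, was 19 with the percentile over all miRNAs (1 higher, 18 lower), 160 without scaling (1 higher, 159 lower), 156 with normexp (136 higher, 20 lower), 1 with quantile normalization, 1 with the spike-ins, 5 with the longest probe, 7 with Feature Extraction's total gene signal, 5 in the deposited value table, 1 with no filter, 1 over miRNAs detected on all arrays, 7 with a trended and robust variance, and 0 to 5 with 1 array left out (5 without nephrectomized replicate 3 and 1 without nephrectomized replicate 1). At an unadjusted p under 0.05, 37 were higher and 11 lower, against 31 and 23 with scaling to the median.

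The residual SD of miR-451-5p was 0.306 with normexp, whose offset compresses differences, and 0.512 to 0.617 with 1 array left out; these alternatives were chosen after seeing the data. With the replicate number as a block it was 0.31 and second at or above its level, while the differences of the 3 miRNAs and the 0 calls stayed as they were (limma adjusted p = 0.453, 0.252 and 0.597), and the ratios had adjusted exact sign-flip p-values of 0.625, 0.562 and 0.562, a test that cannot go below 0.125 with 4 pairs and so says nothing of stability. Arrays of one number, which share a slide column, correlated at 0.335, 0.0867, 0.33 and -0.149 in their deviations over all tested miRNAs. Pairing of rats by number was not tested. For miR-451-5p itself, replicate 3 was above and replicate 4 below the group mean in both groups, by 0.48 and 0.64, and by -0.58 and -0.67.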

Other observations

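Another small group of miRNAs varied widely between rats, and is named here after its values were seen. miR-183-5p, miR-96-5p and miR-182, which are made from one gene cluster known from sensory cells and epithelia, had residual SDs of 0.551, 0.625 and 0.976, ranking 8, 4 and 3 of the 238 tested miRNAs. miR-96-5p had log2 levels of 4.13, 4.88, 4.71 and 5.84 in the sham kidneys and of 5.23, 4.15, 4.88 and 4.19 in the nephrectomized kidneys. miR-183-5p had 3.14, 3.65, 3.42 and 4.71, and then 3.98, 3.15, 3.70 and 3.33, so that the rats lay in nearly the same order. Over the 8 arrays the deviations of miR-183-5p and miR-182 from their group means had an r of 0.975 and 0.921 with those of miR-96-5p, given as a description; miR-182 was below detection on 3 arrays. Sham replicate 4, the highest for all 3, was the lowest sham kidney for miR-451-5p, and the r of miR-183-5p, miR-96-5p and miR-182 with miR-451-5p was -0.418, -0.295 and -0.25. The groups did not differ for any of them by the test (limma adjusted p = 0.781, 0.7 and 0.467).

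The levels and within-array ratios of the 3 miRNAs and 4 measures of whole arrays were also searched for an array far from the other 3 of its group. Of 20 groups of 4 arrays, 0 held such an array, where chance flags about 1 in 20.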
